A study of Mus musculus with 8 samples.

Results

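The memory-like CD8 T cells were 1356 of the 42183 cells in the 4 libraries of total live cells, and the series held 83704 cells in its 8 libraries. They were chosen from their own transcripts. A cell was kept when it had more than 100 genes and at most 10% of its unique molecular identifiers (UMIs, 1 per counted transcript) from mitochondrial genes. It then had to hold at least 2 UMIs of the CD3 chains Cd3d, Cd3e and Cd3g, at most 1 UMI of the B cell genes Cd79a and Ms4a1, at least 1 UMI of Cd8a or Cd8b1, and 0 UMIs of Cd4 and of the natural killer (NK) receptor gene Ncr1. Last, it had to carry a UMI of at least 2 of 5 memory genes: Il2rb, Cxcr3, Ccl5, Cd44 and Gzmk. The control libraries gave 256 and 351 such cells and the cKO libraries 354 and 395. These 14 genes picked the cells, so their values are described and not tested. The T-box factor Eomes was left out of the choice.

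All mice were C57BL/6J animals of 2 months that carried Cγ1Cre and the Rosa26-YFP LSL reporter. The control group carried these alleles alone, and the cKO group was Eif3e fl/fl in addition. Eif3e encodes a subunit of the translation initiation factor eIF3. Cγ1Cre is expressed by B cells activated towards class switching, so CD8 T cells are not the cells it targets, and YFP marks cells in which the Cre has been active. The labels name the spleen as the tissue, the methods spleens and lymph nodes, and each library pooled cells of 2 to 3 mice, so a library and not a mouse was the replicate. Each of the 4 groups (control or cKO, total live cells or sorted YFP+ cells) had 2 libraries, and the labels put replicates 1 and 2 of each group in single-cell batches 1 and 2. In the YFP+ libraries 30 and 4 control cells and 45 and 5 cKO cells met the same conditions, and they entered no comparison.

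CD8 T cells that have met antigen keep high CD44 and CD122 (the product of Il2rb), through which IL-15 maintains them. Cells with much the same surface can also arise in mice that have met no pathogen, under IL-15 or, in some strains, IL-4 and the T-box factors Eomes and T-bet (Tbx21), and are then known as virtual or innate memory cells. Both kinds respond fast, making IFN-γ and granzymes, and memory cells that recirculate through lymph nodes keep the naive cell markers CCR7 and the IL-7 receptor. Transcripts alone cannot tell these origins apart.

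The 4 total libraries held 9566 to 11559 cells and 71894780 to 88513929 UMIs. The summed members of a library held 2659395 to 4170891 UMIs, and the median member 8246 to 9890. Libraries shared 51 to 102 cell barcodes in each of the 28 pairs. Summed counts of the members differed between the replicates of a group far beyond sampling noise, with a chi-square per degree of freedom of 19.0 in control and 17.5 in cKO, so no library was a copy of another. Eif3e, on chr15:43250058-43282719 of build GRCm38, was at 325 and 389 CPM in control and 293 and 339 CPM in cKO in the members. It did not pass (log2 fold change -0.18, SE 0.30, adjusted p = 1.000; 0.478 with batches as blocks). CPM here are UMIs per 1000000 after the trimmed mean (TMM) scaling of each fit, a log2 fold change comes from edgeR's quasi-likelihood test on the counts summed per library, and a gene passed when its p, adjusted over all genes of the fit, was under 0.05.

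Genes of other cells were present at low levels in the members. The 12 B cell genes summed to 1259, 1239, 1047 and 1012 CPM in control replicates 1 and 2 and cKO replicates 1 and 2, the order of all sets of 4 values here, against 39730 to 51683 CPM in B cells. The 8 NK genes summed to 129, 157, 191 and 1189 CPM, against 12281 to 19949 CPM in NK cells, and the high value of cKO replicate 2 came with Gzma, which is on that list. Trdc, a constant chain of the γδ receptor, had a UMI in 4.69, 4.56, 1.69 and 2.53% of members. Summed genes of γδ T cells reached 45.1, 66.6, 41.1 and 36.4 CPM, those of NKT and MAIT cells 20.7, 25.0, 12.9 and 18.5 CPM, those of CD4 T cells 130, 135, 171 and 196 CPM, and those of dendritic cells and macrophages 158, 50.0, 404 and 144 CPM. Igkc, which T cells do not express, had a UMI in 79.7, 74.6, 75.1 and 89.6% of members, and whether it came from free RNA was not tested. The doublet caller marked 0.391, 0.285 and 0.565% of members in the first 3 libraries and 0 of 395 in the last, which allows a share of up to 0.963% (95% Wilson interval, counting error only), against a mean of 2.40% of all control cells and 2.35% of all cKO cells.

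Members made up 23.8 and 28.9% of CD8 T cells in control and 44.0 and 54.0% in cKO. The mean was 26.3 ± 3.57% in control and 49.0 ± 7.06% in cKO (SD, n = 2 each). The difference of 22.6 percentage points was 20.2 in batch 1 and 25.1 in batch 2, and the groups did not overlap, but with 2 libraries against 2 the exact permutation test (two-sided) cannot go below p = 0.333, the value it gave. All CD8 T cells together were 10.9 ± 0.508% of cells in control and 7.30 ± 0.542% in cKO (SD, n = 2; exact p = 0.333). Members were 2.68, 3.04, 3.38 and 3.73% of all cells. CD8 T cells with 0 of the 5 genes, called naive-like here, were 43.6 and 46.0% of CD8 T cells in control and 28.3 and 16.0% in cKO.

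The share of members moved with depth and with the genes of the choice. With each cell thinned to 2000 UMIs it was 7.65, 12.8, 13.5 and 16.8%, and with at least 3 of the 5 genes it was 15.9 ± 2.81% in control against 22.4 ± 4.26% in cKO (SD, n = 2). Il2rb had a UMI in 44.8, 41.0, 58.0 and 72.1% of CD8 T cells, Cxcr3 in 13.2, 17.8, 32.0 and 41.1%, and Gzmk, which encodes granzyme K, in 0.465, 0.822, 3.35 and 6.69%. Cd44 was detected in 19.7, 20.8, 28.9 and 34.0%. Those 4 genes were each seen in a larger share of cKO cells in both batches. Ccl5, a chemokine stored by memory cells, went the other way, in 21.4, 28.8, 18.0 and 19.4% of CD8 T cells. Of the 5 genes Ccl5 alone was lower in cKO than in control within each batch.

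Within the members, Ccl5 was at 1293 and 2576 CPM in control and 836 and 1140.2 CPM in cKO and Gzmk at 1.80 and 8.16 CPM in control and 34.3 and 38.4 CPM in cKO. Cd8a stood at 236, 284, 291 and 383 CPM and Cd8b1 at 632, 871, 644 and 893 CPM in the 4 libraries. Il2rb was at 265, 281, 284 and 329 CPM, Cxcr3 at 70.3, 126, 106 and 124 CPM and Cd44 at 157, 128, 132 and 90.0 CPM. The Ccl5, Gzmk, Il2rb and Cd8a values of the genotypes did not overlap, and those of Cd8b1, Cxcr3 and Cd44 did. These genes chose the cells. With 2 libraries against 2, full separation gives p = 0.333 at best by the exact permutation test.

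The condition of 2 genes divides a range. Cells with exactly 1 of the 5 genes numbered 350, 306, 223 and 220, and cells with exactly 2, the members nearest to the limit, 106, 133, 198 and 209. Eomes, which the choice did not use, was at 25.9, 32.6, 114 and 185 CPM just outside the limit and at 77.4, 84.3, 125 and 224 CPM just inside it. The gene of the memory marker Ly6C, Ly6c2, was at 178, 167, 166 and 148 CPM outside and 337, 405, 270 and 170 CPM inside. The granule gene Nkg7 differed little across the limit, at 374, 499, 437 and 664 CPM outside and 370, 542, 433 and 781 CPM inside. In the cells with 0, 1, 2, 3 and 4 of the genes, Eomes was at 11.5, 25.9, 77.4, 63.9 and 79.2 CPM in control replicate 1 and at 85.6, 185, 224, 257 and 275 CPM in cKO replicate 2.

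**Figure D1:**
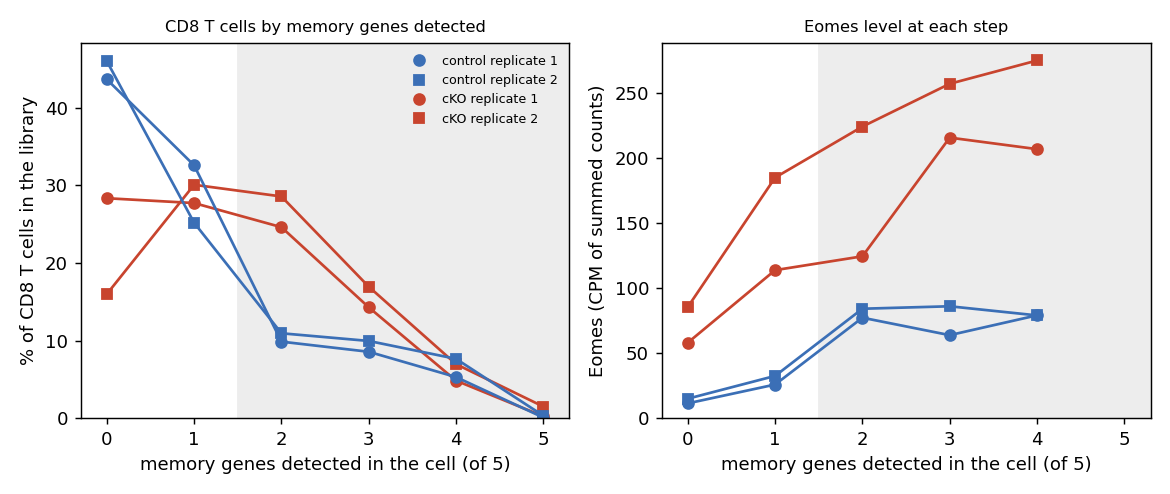
Left, percent of CD8 T cells by the number of the 5 memory genes detected in the cell, from 0 to 5; right, Eomes in CPM in cells with 0 to 4 of the genes; 1 line per total library, and the shaded range holds the members. cKO libraries have fewer cells with 0 genes (28.3 and 16.0% against 43.6 and 46.0%), and their Eomes level lies above that of both control libraries at every step.

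The members were set against the naive-like cells of the same libraries (1373 cells, of which 469, 559, 228 and 117 per library). Members had more RNA of T-bet, granzymes, NK receptors and chemokines and less of Lef1, Ccr7 and Igfbp4, while Il7r did not pass. Of 9914 genes tested with the 4 libraries as blocks, 1093 were higher in members (11% of those tested) and 734 lower (7.4%). Cells were assigned by detected genes, which favours deep cells among the members: the median naive-like cell had 6195 to 7511 UMIs. The count was 276 in a fit without library blocks, and 1210 without control replicate 1.

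Among transcription factors of memory and effector cells, 8 of 10 were higher in members and 0 lower. Tbx21 was at 47.1, 52.0, 22.2 and 32.1 CPM in members and 1.35, 1.77, 0.674 and 2.50 CPM in naive-like cells (log2 fold change 4.82, SE 0.24, adjusted p = 9.15e-16). Eomes, on chr9:118478212-118486132, was at 69.9, 88.8, 162 and 247 CPM against 10.8, 15.4, 57.3 and 88.6 CPM (log2 fold change 1.96, SE 0.24, adjusted p = 0.00657). In each library the member value was the higher of the pair for both factors, and for Eomes the naive-like cells of cKO replicate 2 reached the level of control members. Prdm1 (Blimp-1) and Zeb2, factors of effector differentiation, had log2 differences of 2.34 and 2.43, and Ikzf2 (Helios), a marker of virtual memory cells, one of 1.97 (adjusted p = 8.72e-04).

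All 10 killing genes were higher in members. Gzmm (granzyme M) stood at 35.2, 39.8, 53.4 and 105 CPM against 1.89, 0.295, 4.04 and 2.50 CPM (4.70, adjusted p = 1.29e-14), Gzma differed by 3.40, Gzmb by 2.48 and the perforin gene Prf1 by 0.61 on the log2 scale. Nkg7, a granule protein, was already high in naive-like cells, at 310.2, 491, 345 and 423 CPM, and rose to 465, 743, 541 and 950.0 CPM in members (0.73, adjusted p = 3.22e-04). Of the 4 cytokine and chemokine genes with enough reads, 3 were higher. Ifng, the gene of IFN-γ, had 258 UMIs in members and 1 in naive-like cells, a ratio of levels of 181 (95% counting interval 32.2 to 7175), and Xcl1, a chemokine that draws cross-presenting dendritic cells, was at 68.5, 129.6, 75.2 and 113 CPM against 2.44, 5.32, 2.02 and 20 CPM (log2 difference 4.23, adjusted p = 1.83e-05).

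NK receptor genes differed widely, 9 of 10 being higher in members and 1, the activating receptor Cd226, lower. Klrk1 (NKG2D) was at 32.3, 128, 28.2 and 25.7 CPM against 3.25, 3.84, 0.674 and 1.25 CPM (log2 fold change 4.46, SE 0.22, adjusted p = 4.69e-15). Its highest library was control replicate 2. Klra7 and Klrc1 had 3 UMIs each in all naive-like cells, which gives ratios of 159 (interval 54.2 to 774) and 101 (34.3 to 491). Reads of the Klra and Klrc genes can be shared between near-identical family members, so values of single genes there are uncertain. Klrd1 (CD94) differed by 0.31, a call lost without control replicate 2 (adjusted p = 0.0603).

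Genes of naive cells fell in members for 11 of 15, and 1 (Cd5) rose. Lef1 was at 886, 655, 703 and 482 CPM in members against 1409, 1163, 1254 and 955 CPM (log2 fold change -0.82, SE 0.05, adjusted p = 9.95e-14), Igfbp4 at 35.9, 40.5, 11.7 and 5.44 CPM against 159.7, 167, 94.4 and 66.1 CPM (log2 fold change -2.41, SE 0.21, adjusted p = 5.63e-04). Ccr7 fell by 0.57 and Tcf7 by 0.27 on the log2 scale. Il7r (-0.03, adjusted p = 0.742) did not pass the test. Others among the 10 largest falls were Itgae (-2.33), the integrin chain CD103, and Ifngr2 (-1.86), a chain of the IFN-γ receptor.

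Surface genes of virtual memory cells were mixed, 6 of 14 being higher and 2 lower. Of the 6, 2 passed without control replicate 2 and 3 without control replicate 1, and of the 2 lower ones 1 passed without control replicate 1, control replicate 2 or cKO replicate 2. Ly6c2 was at 475, 615, 341 and 242 CPM against 72.5, 88.9, 72.8 and 109 CPM (2.41, adjusted p = 0.0242), a call lost without control replicate 1 (adjusted p = 0.128), control replicate 2 (0.122) or cKO replicate 1 (0.116). Itga4, the integrin that is low on virtual memory cells, did not pass (-0.05, adjusted p = 0.640). Receptors for cytokines split 4 higher and 4 lower of 12, with Il15ra 1.24 and Il2rg -0.24, and 2 of the 4 higher ones passed without control replicate 2. Among homing receptors 5 of 11 were higher, including Ccr2 (2.87), and 1 lower.

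Inhibitory and chronic stimulation genes were higher for 8 of 10, including Pdcd1 (PD-1, 3.87) and Tigit (1.64), and Tox did not pass (-0.02, adjusted p = 0.916). Immediate early genes were higher for 5 of 12, IL-4 and γ chain response genes for 5 of 11 and cell cycle genes for 5 of 12, with 0 lower in each. Without control replicate 1, 5 of the 8 inhibitory genes passed, without either cKO library 3 of the 5 IL-4 and γ chain response genes, and without control replicate 2, 3 of the 5 cell cycle genes. Interferon stimulated genes were lower for 3 of 14 and higher for 0. None of the 13 eIF3 subunits tested passed. Of other cells' genes, 4 of 12 of B cells (Cd74, H2-Aa, H2-Ab1 and H2-Eb1), 3 of 4 of NK cells, 3 of 4 of dendritic cells and macrophages, 2 of 4 of CD4 T cells and 2 of 4 of γδ T cells were also higher in members, and their part in the result was not tested. 1 of the 2 CD4 T cell genes passed without either control library or cKO replicate 1, and 1 of the 2 γδ genes without cKO replicate 1. Naive-like cells of control replicate 2 held 1693 CPM of erythroid genes, against 4.87 to 19.3 CPM in the other libraries.

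**Figure D2:**
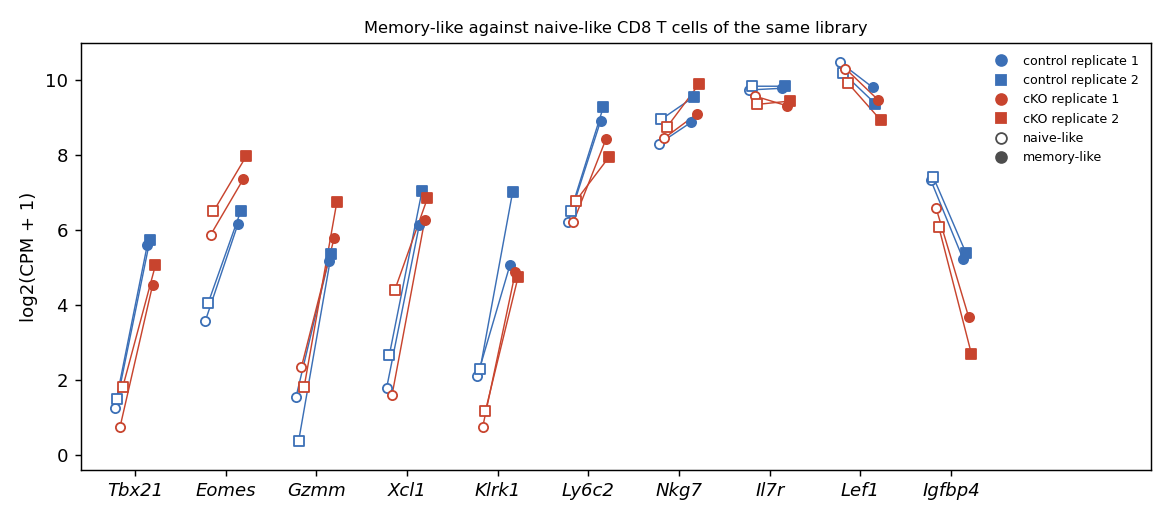
Level of 10 genes on the scale log2(CPM + 1) in naive-like cells (open symbols) and members (filled symbols) of each total library, control blue and cKO red, replicate 1 circles and replicate 2 squares. Tbx21, Eomes, Gzmm, Xcl1, Klrk1, Ly6c2 and Nkg7 are higher in members of each library, Lef1 and Igfbp4 lower, and Il7r overlaps.

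Between genotypes, members of cKO mice carried more RNA of a small set of genes, among them Tspan9, Osbpl6, Efna5, Maf and Klra8, each under 10 CPM in control members, and N4bp1. Of 10151 genes, 13 were higher in cKO (0.128%) and 1 lower (0.00985%). With the shared batch as a block, 225 were higher (2.22%) and 217 lower (2.14%). The fit without the block has 2 residual degrees of freedom. The block takes 1 of these, in members and in naive-like cells alike. All blocked p-values and blocked counts given here carry that limit. Fits with a library left out added passing genes and lost none of the calls. Each such fit leaves 1 library in an arm and takes the spread between libraries from the other arm alone. A pass that a gene gains there is given as a value and supports no call. The genotypes also met the choice through different genes, with a Ccl5 UMI in 74.2, 82.3, 39.3 and 33.9% of members. Of 256, 351, 354 and 395 members, 106, 133, 198 and 209 had exactly 2 of the 5 genes. The part of this in the genotype results that follow was not tested.

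Tspan9, a tetraspanin on chr6:127961396-128143594, was at 5.05 and 7.14 CPM in control and 61.7 and 109 CPM in cKO (log2 fold change 3.8, SE 0.39, adjusted p = 0.00907), with UMIs in 5.47, 5.70, 34.5 and 52.9% of members. B cells, taken as a reference for free RNA, had a Tspan9 UMI in 0.288, 0.201, 0.393 and 0.486% of cells. Their median depths were 4647 to 6281 UMIs. Osbpl6, a gene of the oxysterol binding protein family on chr2:76406508-76600647, was at 5.41 and 3.74 CPM in control and 39.6 and 106 CPM in cKO (log2 fold change 4.0, SE 0.51, adjusted p = 0.0232). In both, cKO replicate 2 was the highest library. N4bp1, a ribonuclease that restrains NF-κB signalling, on chr8:86808160-86885258, was already present in control, with 35.0 and 43.5 CPM in control and 153 and 228 CPM in cKO (log2 fold change 2.28, SE 0.32, adjusted p = 0.0305).

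Efna5, the Eph receptor ligand ephrin-A5 on chr17:62604184-62881317, had 1 UMI in all control members and 733 in cKO members. Its levels were 0.360 and 0 CPM in control and 34.3 and 152 CPM in cKO, a ratio of 566 (95% counting interval 101 to 22388), with an adjusted p of 0.0497 that sat at the threshold. The call was lost in 4 of the 12 alternatives: stricter lineage exclusion (adjusted p = 0.677), at least 3 memory genes (0.168), RLE scaling (0.0589) and Gzmk left out of the gate (0.0567). The fitted log2 fold change there was 10.42, 7.90, 8.77 and 8.77, against 8.78 with the settings used here, each depending on the prior count since control held 1 UMI at most. An Efna5 UMI was found in 0.391, 0, 14.1 and 38.5% of members and in 0.0540, 0.101, 0.151 and 0.987% of B cells, at median depths of 8246 to 9890 and 4647 to 6281 UMIs.

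Maf, a transcription factor of IL-4 and IL-10 producing T cells, on chr8:115682942-115707794, was at 8.65 and 3.74 CPM in control and 44.1 and 47.0 CPM in cKO (log2 fold change 2.88, SE 0.37, adjusted p = 0.0232). CD4 T cell genes summed to 130, 135, 171 and 196 CPM in the same members, and their part in the Maf value was not tested. Klra8, the activating NK receptor Ly49H on chr6:130115226-130129898, was at 0.360 and 1.02 CPM in control and 24.7 and 62.0 CPM in cKO (log2 fold change 5.89, SE 0.66, adjusted p = 0.0135) and had a UMI in 0.391, 0.855, 3.67 and 8.10% of members, so its cKO level came from few cells. B cells had one in 0.594, 0.718, 0.393 and 0.437%, a share like that of the control members. NK cells held Klra8 at 1369, 1882, 1326 and 1795 CPM, without the step between genotypes.

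The single gene that fell, Cd163l1 on chr7:140218267-140231145, encodes a scavenger receptor known from γδ T cells. It was at 26 and 34.7 CPM in control and 6.26 and 4.67 CPM in cKO (log2 fold change -2.48, SE 0.33, adjusted p = 0.0255), in 6.64, 7.12, 2.54 and 3.29% of members. Trdc stood at 14.1, 25.2, 8.94 and 8.11 CPM in the same members, and its part in the fall was not tested. The call was lost under a stricter exclusion of other lineages (log2 fold change -1.65, adjusted p = 0.231) and with at least 3 memory genes (-1.74, 0.168), with the direction kept. Other called genes, named after their values were seen, were 1700016L21Rik, Coch, Hist1h3b, Map2, Nav2 and Penk, all higher in cKO at low levels.

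**Figure D3:**
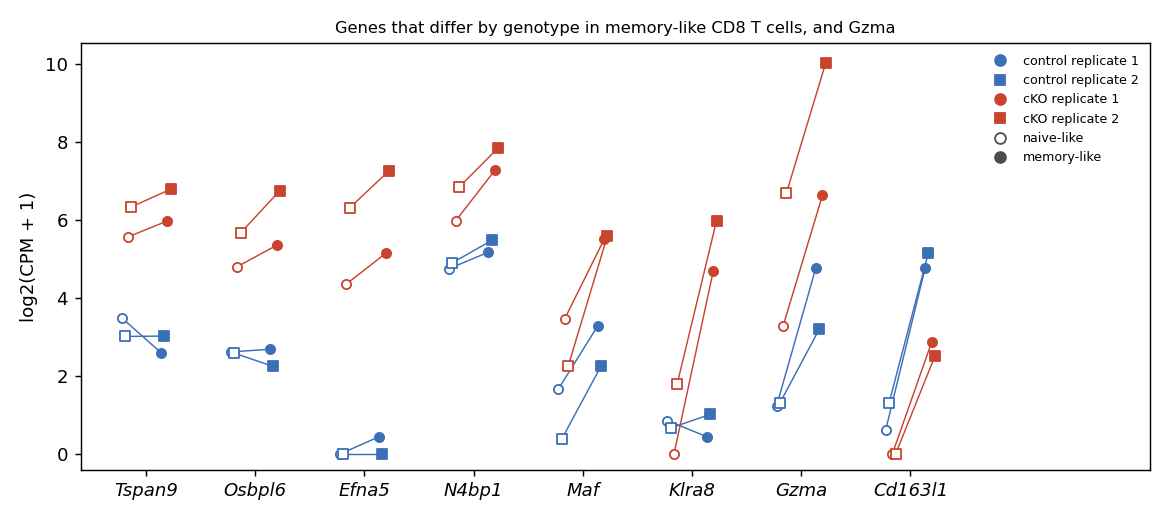
Level of 8 genes on the scale log2(CPM + 1) in naive-like cells (open) and members (filled) of the control (blue) and cKO (red) libraries, replicate 1 circles and replicate 2 squares. Tspan9 in members lies at 5.07, 7.14, 62.0 and 109.8 CPM in control replicates 1 and 2 and cKO replicates 1 and 2, and Gzma shows the wide gap between its cKO replicates.

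Eomes was higher in the cKO library of each batch, and the call depended on the fit. Its levels were 69.6 and 88.8 CPM in control and 161 and 245 CPM in cKO (log2 fold change 1.36, SE 0.32, adjusted p = 0.201). The blocked fit gave a log2 fold change of 1.35 with an adjusted p of 5.05e-06, and it also passed with DESeq2 (adjusted p = 0.0155) and with low counts kept (0.00455). Without cKO replicate 1, with 1 cKO library left and the spread from control alone, the values were 1.63 and an adjusted p of 0.0213. An Eomes UMI was found in 37.1, 34.8, 55.4 and 73.9% of members. With cells thinned to 4000 UMIs the shares were 18.3, 24.0, 39.4 and 50.4%, and B cells had 0.432 to 0.728% unthinned. Tbx21, its partner, lay lower in cKO, at 46.9 and 52.0 CPM in control and 22.0 and 32.0 CPM in cKO (adjusted p = 0.515; blocked 0.00527).

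Killing genes went apart, 0 of 10 passing and 3 of 10 higher with the block (Gzmm, Fasl and Cst7). Gzmm was at 35.0 and 39.8 CPM in control and 53.0 and 104 CPM in cKO (adjusted p = 0.513; blocked 0.00720). It also passed with low counts kept (adjusted p = 0.0328). Without cKO replicate 1, the lower cKO library, the spread came from control alone (1.48, adjusted p = 0.0282). Gzma, on chr13:113093825-113100981, was at 26.3 and 8.16 CPM in control and 97.7 and 1038 CPM in cKO. That log2 fold change of 5.05 (SE 1.35) did not pass (adjusted p = 0.564; blocked 0.671); cKO replicate 2 lay more than 10-fold above cKO replicate 1. Leaving out either cKO library removes that spread from the test, and the values were then 5.92 (adjusted p = 6.24e-22) without cKO replicate 1 and 2.51 (adjusted p = 9.13e-07) without cKO replicate 2, which support no call. A Gzma UMI was in 3.91, 3.42, 24.9 and 55.4% of members. B cells, at a lower median depth, had one in 1.80, 1.74, 1.45 and 3.24%. Whether the control values came from free RNA was not tested. The 5 cells with most Gzma held 93.2, 70.8, 31.7 and 15.0% of its UMIs: in cKO the RNA was spread over many members. Prf1 (46.9, 58.2, 52.4 and 66.1 CPM) and Nkg7 (463, 743, 538 and 945 CPM) overlapped between genotypes.

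NK receptors on CD8 T cells lay below control in cKO for 12 of 12 genes, with a median log2 fold change of -1.10, beside -0.003 over all genes. None of the 12 passed, and with the block 6 were lower (Klrd1, Klrc1, Klrc2, Klrb1c, Cd226 and Cd160) and 0 higher. Klrd1 was at 256 and 341 CPM in control and 139 and 107 CPM in cKO (adjusted p = 0.223; blocked 0.0278). Klrd1 also passed with DESeq2 (-1.28, adjusted p = 0.0126) and with low counts kept (0.0230). Klrc1 (NKG2A), named after its value was seen, was at 39.3 and 56.8 CPM in control and 19.1 and 22.4 CPM in cKO (blocked adjusted p = 6.37e-04). Klrk1 stood at 32.1, 128, 28.0 and 25.6 CPM, with control replicate 2 alone high. It did not pass (adjusted p = 0.615; blocked 0.696), but did with low counts kept (-1.56, adjusted p = 6.72e-04). With 1 library in an arm, which takes its spread from the other group alone, the values were -2.26 (adjusted p = 1.81e-06) without control replicate 1 and -1.65 (adjusted p = 0.0379) without cKO replicate 1. Klrg1, a marker of terminal effectors, was nearly absent, at 0.721, 0.340, 2.09 and 0.983 CPM, and was not tested. Klra8, counted on the NK cell list, rose. The NK marker Klrb1c had a UMI in 5.47, 7.98, 1.41 and 2.78% of members, and its part in these values was not tested.

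The 15 naive and quiescence genes were below control in 15 of 15, with a median of -0.44. With the block 7 were lower (Lef1, Bach2, Igfbp4, Il7r, S1pr1, Actn1 and Rapgef4). Il7r was at 866 and 905 CPM in control and 624 and 684 CPM in cKO (blocked adjusted p = 0.0165) and Lef1 at 881 and 655 CPM in control and 699 and 479 CPM in cKO (blocked 0.0336). Igfbp4 stood at 35.7, 40.5, 11.6 and 5.41 CPM (-2.18, adjusted p = 0.0643; blocked 8.47e-04).

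Cell cycle genes were above control in cKO for 11 of 12, with a median of 0.99, and 5 passed with the block (Top2a, Stmn1, Cdk1, Ccnb2 and Hmgb2). Top2a, chosen after its values were seen, was at 20.5 and 29.2 CPM in control and 58.4 and 103 CPM in cKO (adjusted p = 0.136; blocked 8.37e-06). Mki67 was at 20.9 and 41.2 CPM in control and 121 and 89.5 CPM in cKO and had a UMI in 5.47, 3.13, 11.6 and 9.37% of members, which did not pass (adjusted p = 0.136; blocked 0.328). The Mki67 values of the genotypes did not overlap, which with 2 libraries against 2 gives p = 0.333 at best by the exact permutation test.

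Interferon stimulated genes lay above control in 13 of 14 (median 0.39), 6 passing with the block. Ifi27l2a, again chosen after its values were seen, was at 155 and 196 CPM in control and 306 and 329 CPM in cKO (blocked adjusted p = 2.60e-04). Of 12 IL-4 and γ chain response genes 7 lay above, and 2 passed with the block, among them Socs1, a brake on cytokine signalling, at 44.7 and 52.0 CPM in control and 59.0 and 99.8 CPM in cKO (blocked 0.0133). Il4ra, the IL-4 receptor α chain, was at 86.5 and 68.7 CPM in control and 112 and 115 CPM in cKO (adjusted p = 1.000; blocked 0.0154). Homing receptors gave 2 higher with the block, among them Ccr2 at 11.2, 20.4, 34.6 and 71.3 CPM.

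Both receptor chains for IL-18 had lower values in cKO members. Il18r1, on chr1:40465552-40500854, was at 182 and 241 CPM in control and 65.8 and 35.6 CPM in cKO (log2 fold change -2.06, SE 0.35, adjusted p = 0.0780), in 60.5, 63.5, 28.5 and 14.7% of members. It missed the threshold with the block too (adjusted p = 0.351), and passed with DESeq2 (9.64e-06), with low counts kept (1.00e-06), with at least 3 memory genes (0.0336) and with stricter lineage exclusion (0.0161). Fits with 1 library in an arm, their spread taken from the other genotype alone, gave -2.26 (adjusted p = 6.69e-06) without control replicate 1, -1.85 (0.000684) without control replicate 2 and -2.57 (0.000462) without cKO replicate 1, and support no call. Its partner chain Il18rap was at 72.5, 60.2, 36.3 and 17.9 CPM (adjusted p = 0.314; blocked 7.56e-04). Over all receptors for cytokines 3 of 12 lay above and 9 below, and with the block 1 was higher and 3 lower.

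Of surface memory genes 5 of 14 lay above and 9 below control, 1 being higher with the block and 5 lower, such as Itga4 at 412 and 297 CPM in control and 274 and 193 CPM in cKO (blocked adjusted p = 0.00268). Ly6c2, at 473 and 615 CPM in control and 339 and 241 CPM in cKO, did not pass in either fit (adjusted p = 0.637; blocked 0.232). Transcription factors split 5 and 5, with Ikzf2 at 261, 153, 186 and 81.6 CPM (blocked 0.00361). Inhibitory genes lay above in 8 of 12, with 1 (Lag3) passing with the block, and immediate early genes below in 9 of 12, with 3 passing (Fos, Fosb and Jun). Cytokines gave 0 calls among 5 in either fit, and the 13 eIF3 subunits 0 calls with a median of 0.03.

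Lists of other cells moved as well. With the block 4 of 12 B cell genes were lower in cKO members, 3 of 7 genes of dendritic cells and macrophages higher (Lyz2, S100a8 and S100a9), 1 of 5 γδ genes and 1 of 3 NKT and MAIT genes lower, 1 of 5 CD4 T cell genes higher, and 1 of 8 NK genes higher (Klra8) and 1 lower. The 1 erythroid gene tested did not pass. Their part in the results above was not tested.

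The same genes were examined in naive-like cells, which come from the same libraries as the members. There 6 of 9496 genes were higher in cKO (0.0632%) and 2 lower (0.0211%), and with the block 130 (1.37%) and 159 (1.67%). Both classes called 4 of the same genes, among them Tspan9, Osbpl6 and 1700016L21Rik, which is 28.6% of the 14 genes of the members and 50% of the 8 of the naive-like cells. Eomes passed here without the block, at 10.9 and 15.4 CPM in control and 57.5 and 89.0 CPM in cKO (log2 fold change 2.45, SE 0.34, adjusted p = 0.00220). Tspan9 was at 10.3, 7.13, 46.6 and 80.2 CPM and Osbpl6 at 5.17, 5.05, 27.0 and 50.2 CPM, each higher in cKO in both batches. List shifts like those of the members were present in naive-like cells too: 15 of 15 naive and quiescence genes lay below control (median -0.30), 14 of 14 interferon stimulated genes above (median 0.74) and 10 of 11 cell cycle genes above (median 0.37), of which 5, 5 and 3 passed with the block. Of NK receptor genes 3 were tested there, 2 lying below control and 1 above (median -1.04). A Klrd1 UMI was in 71.4, 64.6, 39.5 and 41.0% of naive-like cells. The difference between the classes was not tested for these lists as sets. By gene, the direct test described below called 1 of 15 naive and quiescence genes, Igfbp4, as lower, beside 0.17% of all genes. That call was lost without control replicate 2 or cKO replicate 2. It called 0 of 14 interferon stimulated genes, 0 of 12 cell cycle genes and 0 of 12 NK receptor genes.

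Ifngas1, a noncoding RNA beside Ifng, was called in naive-like cells and not in members, at 4.89, 7.13, 33.8 and 63.9 CPM (log2 fold change 2.97, SE 0.39, adjusted p = 0.00195) in naive-like cells. Plaur, the urokinase receptor, fell, at 96.5, 90.3, 29.7 and 13.8 CPM (-2.02, adjusted p = 0.0264), as did Wnt5b, at 58.7, 41.0, 13.5 and 5.02 CPM (-2.29, adjusted p = 0.0293). Both calls were lost without cKO replicate 2, with 1 cKO library left, while the log2 fold changes were then -1.65 and -1.88. The 10 genes next in order of p did not pass in the fit without the block. Of these, Ppp3cc, Samd3 and N4bp1 (at 26.1, 29.1, 62.2 and 114 CPM, adjusted p = 0.0745) belong to other results here. Ttn, H2-DMa, Hs6st1, Lhfpl3, Ighe, Ighg1 and Tmie do not.

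In CD4 T cells of the same libraries Maf was at 108, 99.9, 348 and 441 CPM and Efna5 at 0.263, 0, 38.4 and 81.2 CPM, the same order of genotypes as in members. Tspan9 was at 5.79, 2.07, 22.5 and 25.0 CPM in CD4 T cells, below the cKO members. Eomes was at 9.09, 5.63, 21.6 and 31.6 CPM in CD4 T cells and at 312, 366, 322 and 444 CPM in NK cells. B cells held Eomes at 0.891 to 1.49 CPM. These class values are UMIs per 1000000 without further scaling and were not tested.

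The difference of the genotype effect between the classes was tested directly, as the cKO effect in members minus that in naive-like cells. It was positive for 11 of 10593 genes (0.104%) and negative for 18 (0.17%). Without library blocks the same edgeR test called 0 genes, 139 having an unadjusted p below 0.05. DESeq2 called 14. The count was 12 without control replicate 2, 91 without cKO replicate 1 and 58 without cKO replicate 2. Of the 20 genes named by size, 14 lost the call without at least 1 library. The exceptions were Il18rap, Ifngas1, Il18r1, Sidt1, Ifngr1 and Mef2a. Each such fit leaves 1 library in a genotype and takes the spread from the other genotype alone, so a call kept there adds no support.

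Il18r1 was at 183, 241, 66.2 and 35.9 CPM in members and 74.2, 94.2, 66.7 and 52.4 CPM in naive-like cells. The log2 difference of the effects was -1.51 (SE 0.19, adjusted p = 1.19e-05). In both control libraries the members lay above the naive-like cells. In cKO replicate 1 the values were nearly equal (66.2 and 66.7 CPM), and in cKO replicate 2 the members lay below. Il18rap, at 72.8, 60.2, 36.6 and 18.1 CPM in members and 2.98, 4.43, 10.1 and 8.74 CPM in naive-like cells, gave -2.55 (adjusted p = 0.00504).

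Sidt1, a transmembrane protein of the family that moves double-stranded RNA, was at 992, 759.8, 746 and 539 CPM in members and 448, 382, 656 and 492 CPM in naive-like cells, a log2 difference of -0.91 (SE 0.08, adjusted p = 9.36e-09). Ifngr1, the ligand-binding chain of the IFN-γ receptor, was at 484, 486, 439 and 294 CPM and 273, 270.0, 384 and 312 CPM (-0.75, adjusted p = 6.18e-05). For both genes the members lay above the naive-like cells in both control libraries, and the gap was smaller in both cKO libraries, with Ifngr1 of cKO replicate 2 lower in members. Ifngas1 was at 100.4, 124, 189.7 and 167 CPM in members and 4.87, 7.09, 33.7 and 63.6 CPM in naive-like cells (-2.21, adjusted p = 9.58e-04).

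Mef2a, a transcription factor, was at 171, 118, 269 and 377 CPM in members and 145, 88.9, 123 and 151 CPM in naive-like cells, a log2 difference of 0.91 (SE 0.13, adjusted p = 2.27e-04). Eomes was negative at -1.11 (adjusted p = 0.00684), a smaller rise in members than in naive-like cells, and this call was lost without control replicate 2 (-1.18, adjusted p = 0.117). Samd3, a gene of virtual memory lists (-2.10), lost its call without control replicate 1 (adjusted p = 0.0513) or cKO replicate 2 (0.30). The factor Id2 (0.76) lost it without control replicate 2 (0.812) or cKO replicate 2 (0.144), and Otulin, a deubiquitinase (0.79), without control replicate 1 (0.0909) or control replicate 2 (0.153). Lyz2, the myeloid lysozyme (3.03), lost it without cKO replicate 2 (0.482). Ly6c2 did not pass with all libraries (-0.95, adjusted p = 0.386) and, with 1 library in an arm, gave -1.03 (adjusted p = 0.00150) without control replicate 1 and -1.59 (adjusted p = 6.72e-10) without cKO replicate 1.

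**Figure D4:**
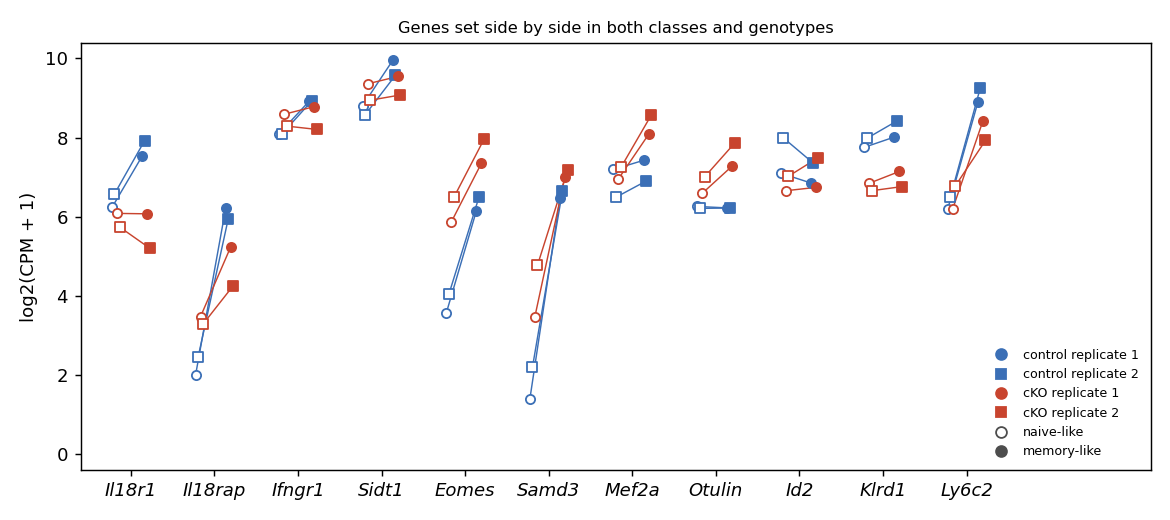
Level of 11 genes on the scale log2(CPM + 1) in naive-like cells (open) and members (filled) of control (blue) and cKO (red) libraries, replicate 1 circles and replicate 2 squares. For Il18r1 the filled blue symbols (183 and 241 CPM) lie above all others. The filled red symbol of replicate 1 (66.2 CPM) nearly meets the open one of its library, and that of replicate 2 (35.9 CPM) lies below its own.

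Members with an Eomes UMI (95, 122, 196 and 292 cells) were compared with members without one in the same libraries. Those with Eomes had more RNA of Ctla2a, Xcl1 and 6 of 12 cell cycle genes, and less of S100a4, Ly6a, Itga4 and Id2. Of 8619 genes, 175 were higher with Eomes (2.03%) and 117 lower (1.36%). Detection of Eomes itself favours deep cells, the same edgeR test called 0 genes without library blocks (425 had an unadjusted p below 0.05), the count was 88 without control replicate 2, and DESeq2 called 69.

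Ctla2a, an inhibitor of cathepsin-like proteases, was at 263, 431, 330.2 and 445 CPM with Eomes and 95.9, 199, 224 and 256 CPM without (log2 fold change 0.95, SE 0.12, adjusted p = 0.00379), and its relative Ctla2b differed by 1.61. In all 4 libraries the Ctla2a value with Eomes was the higher one. The chemokine Xcl1 differed by 0.92 (adjusted p = 3.17e-05) and Samd3 by 0.71.

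Cell cycle genes were higher with Eomes in 6 of 12 and lower in 0 (median 1.05), including Hmgb2 (0.60) and the replication factor Mcm5 (1.08), and 2 of the 6 passed without control replicate 2. Among the genes lost there were Ccnb2 (0.0542), Mcm3 (0.0695) and Birc5 (0.0812), and Birc5 was also lost without cKO replicate 1 (0.0753). Hells and Cks1b were among the 10 largest rises. Of 15 naive and quiescence genes 5 were lower and 0 higher, with Igfbp4 at -1.45, and 0 of the 5 passed without control replicate 2 (Igfbp4 then had an adjusted p of 0.0747, Actn1 0.0714, Klf2 0.126 and Dapl1 0.155). S100a4, a calcium-binding protein of migrating effector cells, was at 48.7, 35.6, 25.6 and 54.7 CPM with Eomes and 97.8, 79.4, 74.8 and 150.1 CPM without (log2 fold change -1.31, SE 0.12, adjusted p = 6.66e-07). Ly6a (Sca-1) differed by -1.33, the integrin gene Itga4 by -0.65 (adjusted p = 1.85e-04), the nuclear receptor Rora by -1.24, Ifngr2 by -1.02 and Id2 by -0.78 (adjusted p = 8.51e-06).

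Killing genes were higher for 2 of 10 (Fasl and Cst7), homing receptors for 3 of 10 with 1 lower (Itgae), surface memory genes for 2 of 14 with 4 lower, and transcription factors lower for 3 of 8 (Id2, Bhlhe40 and Zeb2). Calls were lost for Fasl without cKO replicate 1 (adjusted p = 0.0872), for Cst7 and Zeb2 without control replicate 2 (0.114 and 0.0693) and for Bhlhe40 without cKO replicate 2 (0.423), so both killing genes depended on 1 library. Of the 3 homing receptors that were higher, 0 passed without control replicate 2 and 1 without cKO replicate 2, and of the 2 surface memory genes that were higher 1 passed without control replicate 1 or cKO replicate 1. Of the 20 genes named by size in this comparison, 10 lost the call without at least 1 library. Cd40lg, a CD4 T cell marker, differed by -3.98. Tbx21 (0.04, adjusted p = 0.961), Gzma (1.26, adjusted p = 0.446), Il18r1 (-0.54, adjusted p = 0.682) and Ly6c2 (0.17, adjusted p = 0.232) did not pass.

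**Figure D5:**
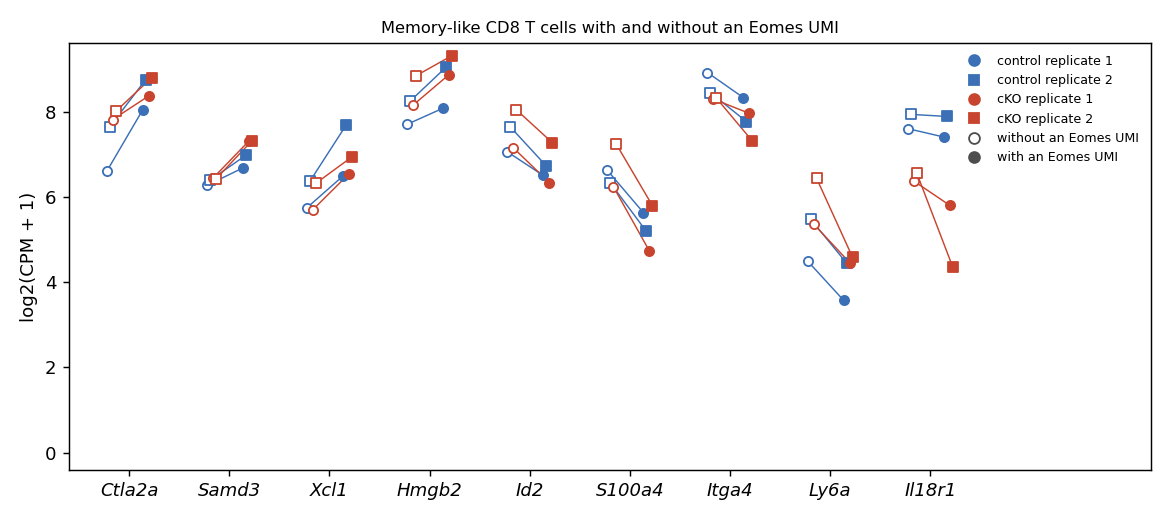
Level of 9 genes on the scale log2(CPM + 1) in members without an Eomes UMI (open) and with one (filled), control blue and cKO red, replicate 1 circles and replicate 2 squares. Ctla2a is higher with Eomes in each library, and S100a4 is lower with Eomes in each library.

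NK cells (565 cells: 166, 183, 128 and 88) use many of the genes that mark memory CD8 T cells, and the members were set against them. They were chosen by at least 1 UMI of Ncr1, 0 UMIs of the CD3 chains and at most 1 UMI of Cd79a and Ms4a1. Members met the opposite conditions for CD3 and Ncr1, which by itself favours T cell genes in members and NK markers in NK cells. The median NK cell had 4500 to 5912 UMIs, fewer than the median member. Of 9431 genes 1830 were higher in members (19.4%) and 1801 lower (19.1%). Of 10 killing genes 6 were lower in members, 1 was higher and 3 did not pass. Prf1 differed by -3.52, Gzmb by -4.21 and Nkg7 by -1.57, at 507, 812, 585 and 1033 CPM in members and 1680.3, 2616, 1677 and 2604 CPM in NK cells. Gzmm was the 1 that was higher in members, by 2.32. Tbx21 (-2.53), Id2 (-2.76) and Klrk1 (-4.66) were lower in members, as were 11 of 13 NK receptor genes and 7 of 8 NK markers. The Klrk1 call was lost without control replicate 1 (adjusted p = 0.0563) or cKO replicate 1 (0.0569). Eomes (-1.24, adjusted p = 0.0547), Gzma (-5.82, adjusted p = 0.0524) and Il18r1 (-2.44, adjusted p = 0.0527) missed the threshold, and Gzma passed without cKO replicate 2 (adjusted p = 0.0433).

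Among the genes higher in members than in NK cells were T cell and naive genes, and the CD3 condition favours T cell genes. Themis, needed for thymic selection, differed by 7.79, and Cd6, Cd5, Sit1 and Dapl1 were also among the 10 largest rises. Il7r (2.44), Lef1 (2.40), Tcf7 (1.93) and Il4ra (2.19) were higher in members. So were 11 of the 13 eIF3 subunits tested (median 0.58), with Eif3e at 0.91. The receptor genes Klrb1b, Klrb1a, Klri2 and Klra4 and the protease and serpin genes Cma1 and Serpinb9b were among the 10 largest falls.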

How the data were processed

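Single-cell RNA was captured from the 3' end with droplets in 8 libraries. The authors deposited matrices of UMI counts per gene and cell, without normalization, and pooled no replicates in them; the submitters' processing notes name GRCm38 and mm10, and the sources used here give no aligner. Positions are those of the deposited genes in the GRCm38 annotation. The 4 total libraries entered the tests, each a pool of mice. The p-values of genotype comparisons measure the spread between pools. Those of tests with library blocks measure how the difference within a library varies from pool to pool.

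Counts were summed over the cells of a class per library and tested with edgeR 4.0.16 (R 4.3.3) by quasi-likelihood F tests with TMM scaling, its filter on low counts and Benjamini-Hochberg adjustment over all genes. CPM came from the fit of each comparison, so a value can differ slightly between comparisons. Genotypes were compared between libraries, and classes within libraries with the library as a block. Same-numbered libraries share a batch per the labels, and their deviations from the group means correlated (0.511 in members, 0.460 in naive-like cells). A fit with the batch as a block was therefore also run, and its values are given for some of the genes whose call it changed. Doublets were called with scanpy 1.11.5 and kept. The code ran in Python 3.11.15 and was tested on simulated data. Alternatives were DESeq2 1.42.0, RLE scaling, no filter, blocks added or dropped, stricter gates, thinning, and leaving out each library.

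The members, the 21 gene lists and the tests were chosen with earlier results of these data known. Named were the 14 gate genes, a fixed set of memory genes, per comparison up to 10 higher and 10 lower genes with the largest changes among those called with a mean of at least 30 CPM and no overlap of groups, up to 4 called genes per list, and, where under 10 were called, the 10 with the smallest p. Other names were chosen after their values were seen. Counting intervals cover counting error only, and no sequence was used. Results of a few genes are not reported here.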

Additional observations from a re-analysis of the deposited data

Results flagged for a closer look

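The genotype effect differed between members and naive-like cells for 20 genes named by size, by the test of the difference itself with the libraries as blocks. Values are log2 differences, the cKO effect in members minus that in naive-like cells. Positive were Lyz2 (3.03), a myeloid gene, Mef2a (0.91), Otulin (0.79), Id2 (0.76), Plac8 (0.74), Cux1 (0.74), the splicing factor gene Mbnl2 (0.72), the phosphatase gene Dusp10 (0.71), Nedd9 (0.59) and Gnas (0.51). Negative were the IL-18 receptor chain Il18rap (-2.55), the noncoding RNA Ifngas1 (-2.21), Samd3 (-2.10), Il18r1 (-1.51), Igfbp4 (-1.12), Eomes (-1.11), Sidt1 (-0.91), Ifngr1 (-0.75), the ubiquitin ligase gene Rnf138 (-0.69) and the calcineurin gene Ppp3cc (-0.65). For 14 of the 20 at least 1 left-out library ended the call, 11 of them without control replicate 2. Each such fit leaves 1 library in a genotype, so a call kept there adds no support.

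In the YFP+ libraries, which no comparison used, the cells that met the members' conditions carried an Eomes UMI in 62.2 and 60% of 45 and 5 cKO cells, against 23.3 and 50% of 30 and 4 control cells. With so few cells this was not tested.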

How the results depend on the processing

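Counts of called genes moved with the fit, and the cause was not tested. Between genotypes in members 14 genes passed, 44 with DESeq2, 222 without the filter on low counts, 442 with the replicate block, 50 under stricter lineage exclusion and 43 to 194 without 1 library. In naive-like cells 8 passed, 29 without the filter, 289 with the replicate block and 11 to 46 without 1 library. Members against naive-like cells gave 1827, with 753 by DESeq2, 276 without library blocks, 1021 under stricter exclusion and 1210 to 1784 without 1 library. The difference of the genotype effect gave 29, with 14 by DESeq2, 52 without the filter, 0 without library blocks, 19 under stricter exclusion and 12 to 91 without 1 library. The Eomes split gave 292, with 69 by DESeq2, 467 without the filter, 0 without library blocks, 25 with at least 3 memory genes, 49 under stricter exclusion and 88 to 237 without 1 library. Against NK cells 3631 passed, 2341 without library blocks. The rise in the share of members, 22.6 points, stayed positive at 4.94 points with thinned cells and 17.6 to 27.6 points without 1 library.

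Over 162 named genes and 1718 alternative values, 1504 kept direction and call and 167 lost the call. Another 30 gained one, all in the genotype comparison of members. Gains of uncalled genes in other comparisons were not counted, such as Ly6c2 in the difference of the genotype effect. The remaining 17 turned, again counted in the genotype comparison of members, and none of them was called. Without 1 library in turn their log2 fold changes ran from -1.71 to 1.25 for Ifng, -0.000871 to 0.34 for Prf1, -0.93 to 0.17 for Gzmb, -0.16 to 0.68 for Nkg7, -0.27 to 0.19 for Ccr7, -0.58 to 0.67 for Tox, -0.62 to 0.13 for Cxcr5, -0.0556 to 1.11 for Cxcr6 and -0.47 to 0.46 for Xcl1. Under stricter exclusion Gzmb (0.76), Ccr7 (0.0534) and Xcl1 (0.34) turned, as did Tox (0.16) with at least 3 memory genes. Members of 256 to 395 cells a library limit what could be seen of genes with few UMIs.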
